A study of Mus musculus with 6 samples.

Results

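The 46 genes described here encode transcription factors, and 1 co-activator of transcription, that pattern the mesoderm and the tissues derived from it. They were taken from the table of counts by gene name, and all 46 were found among its 41721 genes. The list holds 6 T-box genes, 4 GATA genes, 5 forkhead genes, 5 basic helix-loop-helix genes, 12 homeodomain and paired genes, 7 zinc finger genes of the mesothelium and of mesenchymal transition, and 7 genes of the nuclear receptor, Runt, MADS, TEA and Eya families. MASMCs are mouse aortic smooth muscle cells, released from the abdominal aorta with collagenase and then cultured. RNA was sequenced from 3 libraries of *Pdk4*fl/fl cells and 3 of *Pdk4*SMKO cells, all of them treated with Ang II, a peptide hormone that constricts vessels. *Pdk4* encodes a kinase that inhibits the pyruvate dehydrogenase complex. Both genotypes carry loxP sites around exons of *Pdk4*, and both received tamoxifen according to the study's methods. *Pdk4*SMKO mice carry in addition an inducible Cre driven by the *Myh11* promoter, so deletion is limited to cells in which this promoter was active when tamoxifen was given. The methods give adult mice on a C57BL/6J background, and the labels give neither age nor sex. The study calls the libraries of a genotype biological replicates. The labels do not say whether they came from separate animals or separate cultures, so p-values measure the spread between these libraries.

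Lineage transcription factors of the mesoderm bind DNA through a family-specific domain and act in combinations, so that paralogs with nearly the same domain often mark different territories. Smooth muscle cells of the aorta arise from several embryonic sources, among them the neural crest, the second heart field, the somites and the lateral plate mesoderm, and can keep part of the transcription factor code of their origin in culture. The mesothelium and its cardiac counterpart, the epicardium, are sheets that line the body cavities and the heart, express *Wt1* and *Tbx18*, and can give rise to mural cells and fibroblasts through an epithelial-to-mesenchymal transition driven by Snail, Twist and Zeb factors.

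The libraries held 16526044 to 22481670 counted reads each, and 14085 genes passed edgeR's filter on low counts and were tested. CPM is a gene's counts for every 1000000 reads of a library after TMM scaling, and a count of 3, taken as the floor of detection, corresponded to between 0.132 and 0.227 CPM. *Pdk4* held 38.0, 35.0 and 31.8 CPM in *Pdk4*fl/fl and 4.82, 9.05 and 6.91 CPM in *Pdk4*SMKO libraries. The libraries of the 2 genotypes stood far apart, with correlations of log2 CPM of at least 0.981 within and at most 0.748 between genotypes. *Myh11*, a defining smooth muscle marker, was low in both (means of 0.612 and 2.39 CPM), while *Acta2* was abundant (233 and 700.1 CPM). *Xist*, transcribed from the inactive X chromosome of female cells, was at 3, 4 and 5 counts against 610, 347 and 321 in the *Pdk4*SMKO libraries, although the study's methods describe male mice and a Y-linked Cre. Whether the cultures also differed in sex cannot be told apart from the genotype in any value below.

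Of the 46 genes, 32 were expressed enough to be tested and 14 were not. With a limit of 0.05 on the adjusted p and of 2-fold on the change, 15 were higher and 6 were lower in *Pdk4*SMKO cells, and 11 were not called. The share of members called higher was 46.9%, against 32.8% of all genes tested, and the share called lower was 18.8%, against 26.5% of all genes tested. *Tbx3*, *Hand2*, *Wt1* and *Nr2f1* passed the filter only through their *Pdk4*SMKO counts, and *Runx3* only through its *Pdk4*fl/fl counts. For these the direction followed from the filter. *Six2* and *Lhx2*, counted mainly in *Pdk4*fl/fl cells, did not pass it and were called lower in a fit without it. The shares therefore depend on which genes passed. Among the 920 other tested genes that the table assigns to a transcription factor family, 38.1% were higher and 24.3% lower. The median log2 fold change was 0.86 for the members, 0.29 for the other transcription factors and 0.12 for all genes. In 31 of the 32 members every library of one genotype lay above every library of the other, 22 being higher and 9 lower in *Pdk4*SMKO cells, and the same held for 81.8% of all genes tested. For each of these 31 the exact permutation test, two-sided, returned p = 0.1, which is the lower limit with 3 libraries a side, so the calls rest on the spread that edgeR estimates across all genes. The split between directions depended on scaling. Scaling by library size alone moved the median of all genes by 0.60 and gave 22 higher and 4 lower members (6183 and 2391 of all genes, against 4616 and 3733 with TMM), and upper-quartile factors gave 18 and 4.

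**Figure D1:**
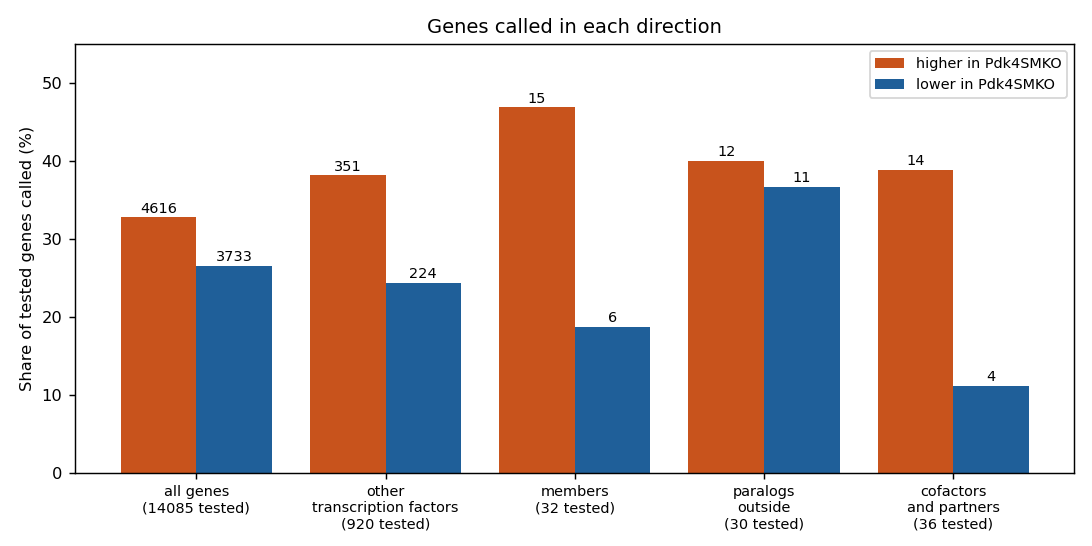
Share of tested genes, in percent, called higher (orange) and lower (blue) in *Pdk4*SMKO cells, with the number called above each bar. The members reached 46.9% higher and 18.8% lower, against 32.8% and 26.5% of all genes, under TMM scaling.

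**Figure D2:**
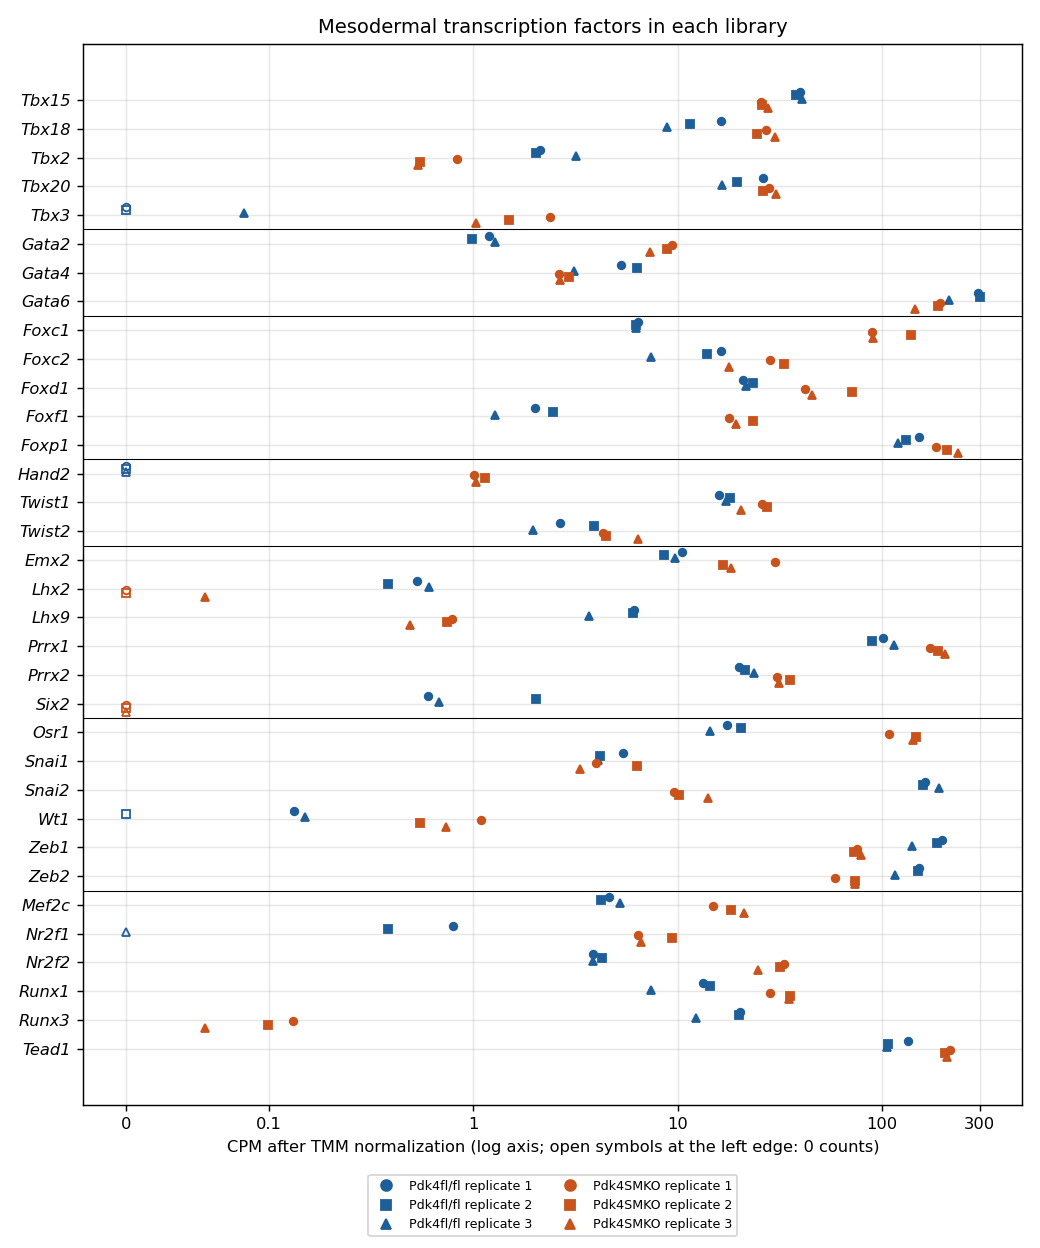
CPM of the 32 tested members and of *Six2* and *Lhx2* in each library, on a log axis, grouped by family from T-box at the top to *Tead1* at the bottom. Blue symbols are *Pdk4*fl/fl and orange symbols *Pdk4*SMKO libraries, and *Snai1* is the gene among the tested members in which the colours overlap.

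Start regions of members at both ends of the range of fold changes are shown here, as examples of the promoters of these genes. RefSeq's table for GRCm38.p6 held 28 of the 46 genes with 40 start sites. It was used for sequence alone, because the counts belong to another assembly. The 250 bases before the start are printed 5′ to 3′ on the gene's strand. Capitals mark GC boxes (GGGCGG or its complement CCGCCC), the letters bound by Sp factors.
Hand2 (chr8:57320733-57320982, plus strand): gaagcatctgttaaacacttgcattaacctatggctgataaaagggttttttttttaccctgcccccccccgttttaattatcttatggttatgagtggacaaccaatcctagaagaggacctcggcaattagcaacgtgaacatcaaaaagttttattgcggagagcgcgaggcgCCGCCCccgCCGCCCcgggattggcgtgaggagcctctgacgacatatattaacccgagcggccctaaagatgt
Nr2f1 (chr13:78198874-78199123, minus strand): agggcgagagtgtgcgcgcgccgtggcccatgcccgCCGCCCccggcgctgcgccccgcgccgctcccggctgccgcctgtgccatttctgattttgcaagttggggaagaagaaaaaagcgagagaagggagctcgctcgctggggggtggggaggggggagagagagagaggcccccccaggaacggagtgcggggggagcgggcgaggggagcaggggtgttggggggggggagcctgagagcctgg
Foxc1 (chr13:31806396-31806645, plus strand): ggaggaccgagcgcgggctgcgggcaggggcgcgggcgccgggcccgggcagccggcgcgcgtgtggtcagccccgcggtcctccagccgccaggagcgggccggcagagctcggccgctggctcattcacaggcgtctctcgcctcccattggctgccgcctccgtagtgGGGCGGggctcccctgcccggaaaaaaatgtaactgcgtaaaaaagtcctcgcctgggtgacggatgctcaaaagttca
Runx3 (chr4:135152295-135152544, plus strand): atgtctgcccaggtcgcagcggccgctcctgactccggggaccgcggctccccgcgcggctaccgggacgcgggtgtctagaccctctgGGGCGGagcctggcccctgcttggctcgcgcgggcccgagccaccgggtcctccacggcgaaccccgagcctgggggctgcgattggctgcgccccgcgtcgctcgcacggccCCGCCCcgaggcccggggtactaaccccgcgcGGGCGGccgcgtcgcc
Lhx9 (chr1:138842445-138842694, minus strand): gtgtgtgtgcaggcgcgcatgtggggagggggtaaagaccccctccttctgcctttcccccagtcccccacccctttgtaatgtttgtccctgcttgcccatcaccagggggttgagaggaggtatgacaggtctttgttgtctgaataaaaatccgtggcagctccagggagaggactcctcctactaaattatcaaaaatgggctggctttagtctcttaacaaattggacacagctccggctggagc
Six2 (chr17:85688255-85688504, minus strand): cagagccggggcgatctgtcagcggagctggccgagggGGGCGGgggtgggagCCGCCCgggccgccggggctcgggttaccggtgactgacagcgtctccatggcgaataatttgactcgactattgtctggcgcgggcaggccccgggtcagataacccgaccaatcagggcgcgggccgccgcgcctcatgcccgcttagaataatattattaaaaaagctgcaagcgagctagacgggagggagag

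*Hand2*, *Nr2f1* and *Foxc1* were among the members most increased in *Pdk4*SMKO cells, and *Runx3*, *Lhx9* and *Six2* were higher in *Pdk4*fl/fl cells. For genes with several starts the most upstream start found in a GENCODE transcript is shown. GC boxes occurred in 5 of the 6 windows, in both directions of change, and *Lhx9* had none. The GC content was 78.8% for *Runx3*, 72.0% for *Nr2f1*, 70.8% for *Foxc1*, 64.8% for *Six2*, 53.6% for *Lhx9* and 49.2% for *Hand2*. Over the 40 member starts, a GC box was present in 57.5%, against 32.7% of all 32851 starts in the table, and the median GC content was 62.2% against 52.4%. The ratio of observed to expected CpG dinucleotides had a median of 0.705 among the member starts and 0.374 among all starts. Other motifs, searched on both strands and counted separately, so that the same base could belong to more than 1, were no more frequent among the members. TATAAA, the TATA box, was in 10.0% of member windows and 12.4% of all. CAGGTG, the E-box that Snail and Zeb proteins bind, was in 10.0% and 17.2%. AGATAA, a form of the GATA site, was in 7.5% and 9.99%. A match in these letters is a description of the window and not a site shown to be bound. GC boxes were found in 53.3% of the 15 starts of higher members, 57.1% of the 7 starts of lower members and 66.7% of the 9 starts of members not called. These starts belong to 10, 3 and 7 genes, and starts of the same gene are not independent.

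T-box factors share a DNA-binding domain first described in Brachyury, and the members cover the epicardium, the limb and the non-chamber myocardium. *Tbx3*, a repressor needed for the cardiac conduction system (MGP_C57BL6NJ_G0030428, chromosome 5 from 127587314 to 127603408, plus strand, in the table's C57BL/6NJ coordinates), was counted 0, 0 and 1 times in *Pdk4*fl/fl libraries and 54, 30 and 21 times in *Pdk4*SMKO libraries. It was thus near absent in one genotype and well above the floor in every library of the other. The ratio of its summed counts per effective library size was 77.1 (95% counting interval 13.5 to 3073), and its log2 fold change was 5.85 (standard error 0.83, edgeR adjusted p = 8.97e-05). Without *Pdk4*fl/fl replicate 3 it had 0 counts in that genotype and was still called, but the fitted change is then set by the prior count and is not given. *Tbx2*, its closest relative and likewise a repressor, had the opposite direction, with 2.13, 2.03 and 3.17 CPM against 0.833, 0.547 and 0.539 CPM (log2 fold change -1.91, standard error 0.38, edgeR adjusted p = 0.0009). *Tbx18*, a marker of the epicardium and of its mural progeny, held 16.3, 11.5 and 8.84 CPM in *Pdk4*fl/fl and 27.0, 24.4 and 30.0 CPM in *Pdk4*SMKO cells. This increase, 2.22-fold, was called (log2 fold change 1.15, edgeR adjusted p = 0.000636), although it fell short of 2-fold without *Pdk4*fl/fl replicate 3 (log2 fold change 0.95). *Tbx15*, the paralog of *Tbx18* in skeletal and muscle development, ran from 38.1 to 40.5 CPM in *Pdk4*fl/fl and from 25.4 to 27.5 CPM in *Pdk4*SMKO libraries, a log2 fold change of -0.58 that was not called and became 0.02 when scaled by library size alone. *Tbx20*, a cardiac factor, differed by 0.44 and was not called either. *Tbx5*, the forelimb and heart factor, had 0 counts in all 6 libraries, which allows up to 3 counts, or 0.227 CPM in the shallowest library. Intervals and floors cover counting error only.

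GATA factors bind through a pair of zinc fingers, with *Gata4*, *Gata5* and *Gata6* acting in the heart, gut and vessel wall and *Gata2* in blood and endothelium. *Gata6*, which maintains the contractile state of smooth muscle, was with *Snai2* one of the most abundant members per length in *Pdk4*fl/fl cells. It held 294, 301 and 212 CPM there and 191, 187 and 145 CPM in *Pdk4*SMKO cells. The genotypes did not overlap, yet the log2 fold change of -0.62 (standard error 0.17, edgeR adjusted p = 0.00566) did not reach 2-fold, and it was -0.02 with library size alone. *Gata2* moved in the opposite direction, from 1.20, 0.987 and 1.28 CPM to 9.38, 8.85 and 7.30 CPM, 7.36-fold (log2 fold change 2.88, standard error 0.26, edgeR adjusted p = 3.29e-06). *Gata4* was low, with 5.26, 6.31 and 3.10 CPM against 2.63, 2.93 and 2.65 CPM. Its log2 fold change of -0.85 was not called with all libraries and was called without *Pdk4*fl/fl replicate 3 (-1.10). *Gata5* had 0 counts in every library. 

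Forkhead factors fold as a winged helix. *Foxf1* is a target of Hedgehog signaling in visceral mesoderm, *Foxc1* and *Foxc2* act in the paraxial mesoderm and in vessels, *Foxd1* marks stromal progenitors of the kidney, and *Foxp1* acts in heart and lung. All 5 were tested and 4 were called, each of them higher, against 32.8% higher among all genes tested. Of all 27 tested forkhead genes 13 were higher (48.15%) and 4 lower (14.81%, against 26.5% of all genes tested). The family thus leaned the same way, with a median log2 fold change of 0.64 against 0.12 for all genes, but not every gene rose. *Foxc1* (MGP_C57BL6NJ_G0020809, chromosome 13 from 30757711 to 30761663, plus strand) had the largest increase of the family. It held 6.39, 6.25 and 6.27 CPM in *Pdk4*fl/fl and 89.6, 139 and 90.6 CPM in *Pdk4*SMKO libraries, a mean of 6.31 ± 0.0751 against 106 ± 28.3 CPM (SD, n = 3 each). This is a 16.9-fold difference (log2 fold change 4.08, standard error 0.20, edgeR adjusted p = 6.89e-08). *Foxf1* (MGP_C57BL6NJ_G0034701, chromosome 8 from 128702223 to 128705981, plus strand) followed, at 2.00, 2.47 and 1.28 CPM against 17.8, 23.5 and 19.4 CPM (10.5-fold, log2 fold change 3.37, standard error 0.25, edgeR adjusted p = 8.68e-07). *Foxd1* was 2.42-fold higher, with 20.9, 23.3 and 21.7 CPM against 42.1, 71.7 and 45.5 CPM, and stayed above 2-fold with each library left out in turn. *Foxc2* held 16.2, 13.9 and 7.41 CPM in *Pdk4*fl/fl and 28.4, 33.0 and 17.8 CPM in *Pdk4*SMKO cells. Its ranges nearly met, and its call (log2 fold change 1.07, edgeR adjusted p = 0.00733) was lost without *Pdk4*fl/fl replicate 3 (0.79) or without *Pdk4*SMKO replicate 2 (0.89). *Foxp1* was abundant in both genotypes, from 120 to 152 and from 183 to 236 CPM, and its log2 fold change of 0.64 was not called.

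**Figure D3:**
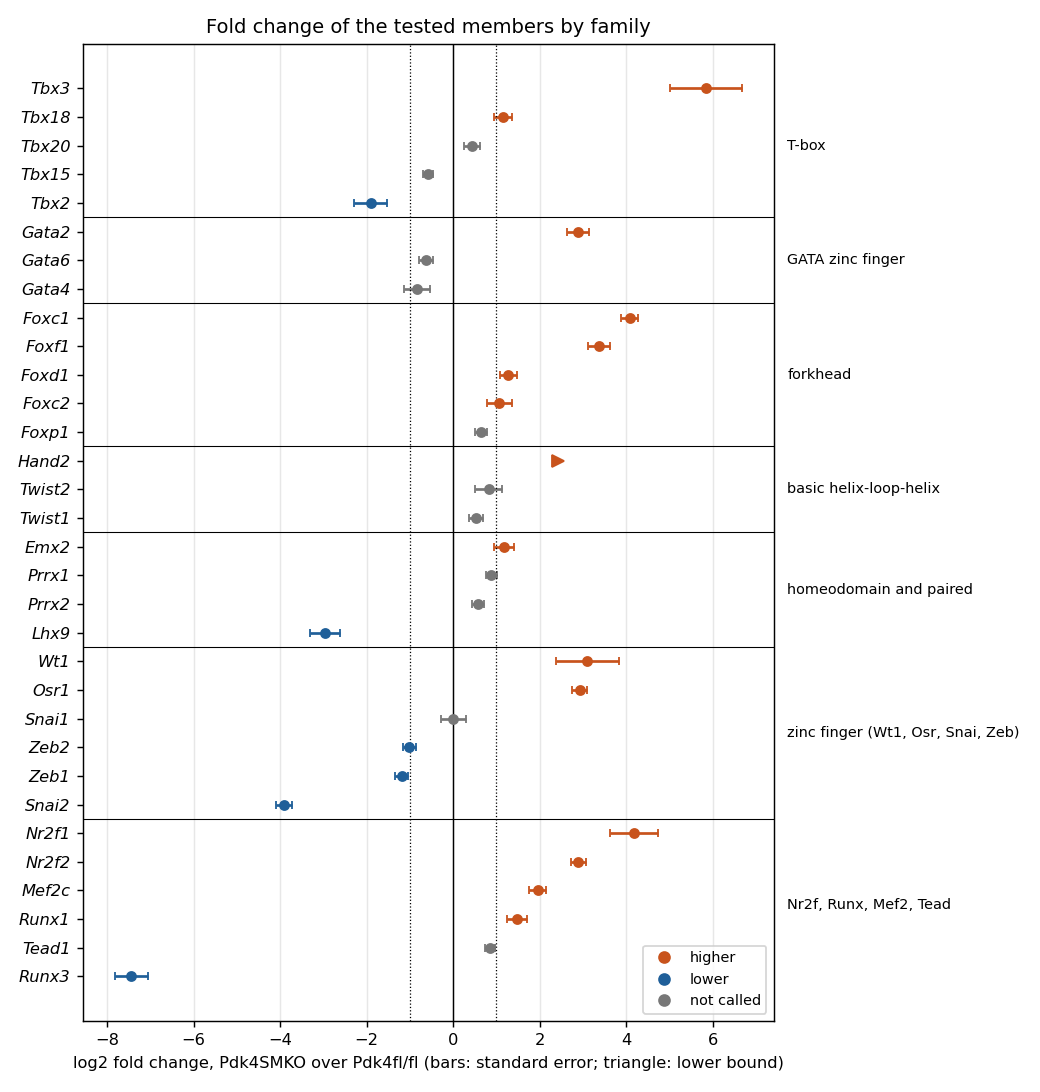
Log2 fold change of the 32 tested members, *Pdk4*SMKO over *Pdk4*fl/fl, under TMM scaling, with its standard error, ordered within families. Orange points were called higher, blue points lower and grey points not called, dotted lines mark 2-fold, and the triangle for *Hand2* is the bound set by the floor. *Zeb1* and *Zeb2* lie just past the lower line and *Gata4* just short of it, and the calls of both Zeb genes were lost under upper-quartile or library-size scaling.

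Basic helix-loop-helix factors bind E-boxes as dimers with E proteins. *Hand2*, a factor of the heart, the limb and sympathetic neurons (MGP_C57BL6NJ_G0034116, chromosome 8 from 59223574 to 59227108, plus strand), was not counted in the *Pdk4*fl/fl libraries and reached 23, 23 and 21 counts in those of *Pdk4*SMKO cells. At 1.06 ± 0.0726 CPM (SD, n = 3) it was at least 5.38-fold higher, taking 3 counts in each *Pdk4*fl/fl library as the floor, and it passed the test (edgeR adjusted p = 0.000115). Its paralog *Hand1* had 0 counts throughout. *Tcf21*, which marks epicardial and adventitial progenitors of fibroblasts and smooth muscle, stayed at or under the floor in all 6 libraries (1, 0 and 0 counts against 2, 1 and 3). *Twist1* and *Twist2*, which drive mesenchymal transition in mesoderm and neural crest, were higher in every *Pdk4*SMKO library without being called. *Twist1* had 238, 328 and 229 counts against 588, 551 and 416 (log2 fold change 0.52). *Twist2* held 2.66, 3.89 and 1.97 CPM against 4.30, 4.47 and 6.42 CPM, and its log2 fold change of 0.82 passed 2-fold without *Pdk4*fl/fl replicate 2 (1.13) and with upper-quartile factors (1.03).

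Of the 12 homeodomain and paired genes, 4 were tested, and the other 8 lay at or near the floor in at least 1 genotype. *Prrx1* and *Prrx2*, the paired-related factors of limb and craniofacial mesenchyme, were the abundant ones. *Prrx1* ran from 89.7 to 114 CPM in *Pdk4*fl/fl and from 172 to 202 CPM in *Pdk4*SMKO libraries, and the change of 0.88 on the log2 scale (standard error 0.13, edgeR adjusted p = 0.000113) was under 2-fold with TMM scaling, as was that of *Prrx2* (0.58). *Prrx1* passed 2-fold with upper-quartile factors (1.09) and library size alone (1.49), and *Prrx2* with library size alone (1.19). *Emx2*, needed for the urogenital ridge and the forebrain, held 10.5, 8.56 and 9.75 CPM against 30.0, 16.7 and 18.2 CPM. *Pdk4*SMKO replicate 1 stood above the other libraries, and the call (log2 fold change 1.17, edgeR adjusted p = 0.00101) was lost without it (0.87). *Lhx9*, a LIM-homeodomain factor of the gonad and limb, fell from 6.13, 6.03 and 3.70 CPM to 0.789, 0.746 and 0.490 CPM (7.83-fold lower, log2 fold change -2.96, standard error 0.35, edgeR adjusted p = 2.42e-05). Its paralog *Lhx2* was counted 8, 7 and 8 times in *Pdk4*fl/fl cells and 0, 0 and 1 times in the others, a ratio of 31.3 between the genotypes (95% counting interval 5.09 to 1291). *Six2*, which keeps nephron and craniofacial progenitors undifferentiated, had 9, 37 and 9 counts against none. Its mean in *Pdk4*fl/fl cells was at least 7.74-fold that in *Pdk4*SMKO cells, taking 3 counts in each library as the floor. Replicate 2 carried this mean (0.599, 2.03 and 0.680 CPM), and replicates 1 and 3 alone would give a smaller bound. *Lhx2* and *Six2* were too low for the filter, and both were called lower in a fit without it (edgeR adjusted p = 0.0013 for *Lhx2*). *Meox1* and *Meox2*, factors of the somites, had at most 3 counts in any library. *Nkx2-5* and *Isl1*, which define cardiac progenitors, had at most 2. *Barx1*, of the stomach mesenchyme, had none. *Pax3*, a factor of somites and neural crest, had 1, 0 and 1 counts against 13, 0 and 2, so that its level in *Pdk4*SMKO cells came almost wholly from replicate 1.

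Of the 7 zinc finger genes 6 were tested, with 2 higher, 3 lower and 1 not called. Among all genes tested, 32.8% were higher and 26.5% lower. *Osr1*, an early factor of the intermediate and lateral plate mesoderm (MGP_C57BL6NJ_G0019984, chromosome 12 from 6897477 to 6904522, plus strand), held 17.4, 20.5 and 14.4 CPM in *Pdk4*fl/fl and 108, 147 and 142 CPM in *Pdk4*SMKO libraries. The means of 17.4 ± 3.05 and 132 ± 21.1 CPM (SD, n = 3 each) differed 7.60-fold (log2 fold change 2.92, standard error 0.18, edgeR adjusted p = 2.27e-07). *Osr2*, its paralog, did not exceed 2 counts. *Wt1*, the defining factor of mesothelium and epicardium, went from 2, 0 and 2 counts to 25, 11 and 15, a ratio of 9.36 (95% counting interval 3.44 to 35.7). It was called (log2 fold change 3.10, standard error 0.73, edgeR adjusted p = 0.00266) at 1.10, 0.547 and 0.735 CPM in *Pdk4*SMKO cells, and the log2 fold change was 2.45 without *Pdk4*fl/fl replicate 2. Of the 4 zinc finger factors of mesenchymal transition 3 were lower and *Snai1* was not called, while the Twist genes described above were higher in every *Pdk4*SMKO library without being called. *Snai2*, or Slug, a repressor of epithelial genes (MGP_C57BL6NJ_G0022963, chromosome 16 from 11966111 to 11969654, plus strand), fell from 162, 159 and 189 CPM to 9.56, 10.2 and 14.2 CPM. This was a 15.0-fold difference (log2 fold change -3.91, standard error 0.18, edgeR adjusted p = 4.32e-08). *Snai1*, its paralog, was the tested member whose genotypes overlapped, at 5.39, 4.17 and 4.08 CPM against 3.99, 6.36 and 3.33 CPM (log2 fold change 0.00, standard error 0.29). *Zeb1* ran from 140 to 196 CPM in *Pdk4*fl/fl and from 73.2 to 79.2 CPM in *Pdk4*SMKO cells, and *Zeb2* from 116 to 151 and from 59.1 to 74.1 CPM. Both were called lower (log2 fold changes -1.19 and -1.01). With upper-quartile factors neither reached 2-fold (-0.98 and -0.80), nor did they with library size alone (-0.59 and -0.41), and the call of *Zeb2* was also lost without *Pdk4*fl/fl replicate 1 or 2 or *Pdk4*SMKO replicate 1 (-0.90 to -0.95).

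*Nr2f1* and *Nr2f2* encode the orphan nuclear receptors COUP-TFI and COUP-TFII, the latter a determinant of venous and atrial identity and abundant in many mesenchymes. *Nr2f2* (MGP_C57BL6NJ_G0032848, chromosome 7 from 74757477 to 74773358, minus strand) held 3.86, 4.28 and 3.86 CPM in *Pdk4*fl/fl and 33.2, 31.6 and 24.7 CPM in *Pdk4*SMKO cells, 7.46-fold more (log2 fold change 2.89, standard error 0.18, edgeR adjusted p = 2.73e-07). *Nr2f1* rose from 12, 7 and 0 counts to 146, 189 and 135 counts, with *Pdk4*fl/fl replicate 3 at 0 (log2 fold change 4.18, standard error 0.56, edgeR adjusted p = 6.21e-05). Its log2 fold change was 5.05 without *Pdk4*fl/fl replicate 1. *Runx3*, a Runt factor of lymphocytes, cartilage and sensory neurons (MGP_C57BL6NJ_G0029363, chromosome 4 from 142466450 to 142524681, plus strand), had the most negative fold change of the tested members. It went from 304, 365 and 162 counts to 3, 2 and 1, which left every *Pdk4*SMKO library at or under the floor. The ratio of the genotypes was 189 (95% counting interval 86.3 to 516), and the log2 fold change was -7.43 (standard error 0.39, edgeR adjusted p = 8.99e-08). *Runx1*, the Runt factor of blood formation that is also induced in injured mesenchyme, rose 2.81-fold, from 13.4, 14.4 and 7.41 CPM to 28.3, 35.5 and 34.9 CPM (log2 fold change 1.48, edgeR adjusted p = 0.000182). *Mef2c*, a MADS-box partner of myogenic and cardiac factors, rose 3.87-fold, from 4.59, 4.22 and 5.22 CPM to 14.9, 18.2 and 21.2 CPM (log2 fold change 1.95, edgeR adjusted p = 8.5e-06). *Tead1*, through which the Hippo pathway acts on muscle genes, was higher in every *Pdk4*SMKO library, at 134, 107 and 106 against 215, 204 and 207 CPM, a log2 fold change of 0.85 that was not called and passed 2-fold with upper-quartile factors (1.06). *Eya1*, a phosphatase and co-activator of homeodomain factors, had between 0 and 9 counts per library and was not tested.

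Levels of different genes were compared as mean CPM per kilobase of the gene length listed in the table. In *Pdk4*fl/fl cells the order began with *Gata6* (84.1 CPM per kb) and *Snai2* (83.7), whose means differed by less than the spread between libraries, followed by *Zeb1* (17.3), *Prrx2* (11.1), *Tead1* (10.7), *Twist1* (10.6) and *Tbx15* (10.5). In *Pdk4*SMKO cells it began with *Osr1* (66.2 CPM per kb) and *Gata6* (54.6), followed by *Foxc1* (26.9), *Foxd1* (21.3), *Tead1* (19.3), *Prrx1* (16.9), *Prrx2* (16.5) and *Twist1* (15.2), the last 3 of which differed by less than the spread between libraries. *Gata6*, *Tead1*, *Prrx2* and *Twist1* thus stood in the leading 8 of both orders, while *Snai2* went from rank 2 to rank 17 and *Foxc1* from rank 19 to rank 3. *Osr1* went from rank 11 to rank 1 and *Runx3* from rank 14 to rank 37 of the 46. Since these are bulk libraries, a larger number of cells with a given factor and more RNA of it per cell cannot be told apart.

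**Figure D4:**
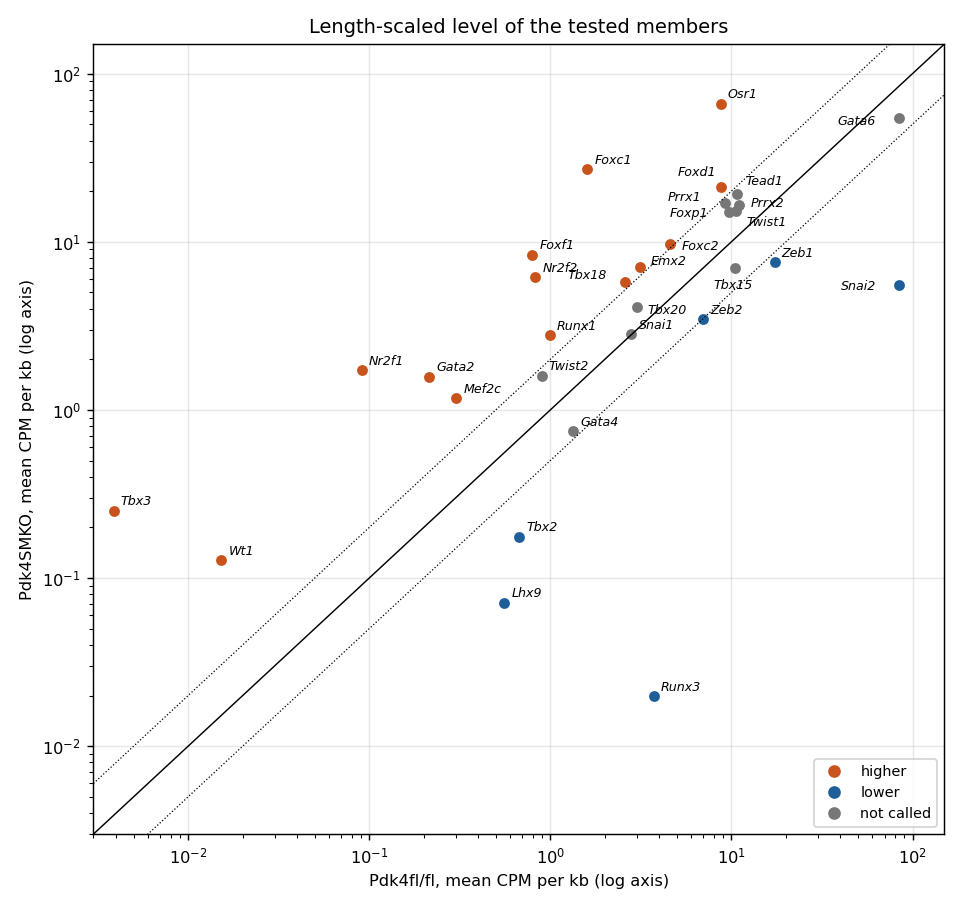
Mean CPM per kb of the tested members other than *Hand2* in *Pdk4*fl/fl (x axis) and *Pdk4*SMKO cells (y axis), both log axes, with colours by call, the solid line at equality and dotted lines at 2-fold. *Gata6* and the group of *Prrx1*, *Prrx2*, *Tead1*, *Twist1* and *Foxp1* lie within the dotted lines near the top, while *Osr1*, *Foxc1* and *Snai2* lie far from equality.

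Paralogs were next compared within each library, as the log2 ratio of the counts of 2 related genes with 0.5 added to each count. Such a ratio does not depend on how libraries are scaled to each other. Of 19 pairs, 15 had both genes above the floor in at least 1 library. In 9 of these 15 the genotypes did not overlap, each with p = 0.1 in the exact two-sided permutation test the lowest it can give with 3 libraries a side, and an adjusted p of 0.167 over the 15 pairs. The mean ratio of *Runx1* to *Runx3* went from -0.60 ± 0.12 in *Pdk4*fl/fl to 8.19 ± 0.68 in *Pdk4*SMKO libraries (SD, n = 3 each), and that of *Tbx2* to *Tbx3* from 5.69 ± 0.76 to -1.26 ± 0.32 (SD, n = 3 each). The second of these rests on 1 count of *Tbx3* in *Pdk4*fl/fl cells and is set largely by the value added. *Foxc1* to *Foxc2* went from -0.91 ± 0.59 to 2.03 ± 0.35, and *Tead1* to *Tead2* from 0.10 ± 0.23 to 2.18 ± 0.29 (SD, n = 3 each). In these 4 pairs the more abundant gene per length was a different paralog in every library of the 2 genotypes. *Runx3*, *Tbx2*, *Foxc2* and *Tead2* led in *Pdk4*fl/fl cells, and *Runx1*, *Tbx3*, *Foxc1* and *Tead1* led in *Pdk4*SMKO cells. The lead of *Tbx3* was small, with a *Tbx2* to *Tbx3* ratio per length of 0.641, 0.676 and 0.959 on 11 to 19 counts of *Tbx2* and 21 to 54 of *Tbx3*. At this depth the last of these ratios, from 11 and 21 counts, cannot be told from equality.

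In 5 other pairs the ratio moved without such a switch in every library. *Snai1* to *Snai2* shifted by 3.88, *Mef2c* to *Mef2a* by 3.35, *Runx1* to *Runx2* by 3.19, *Tbx18* to *Tbx15* by 1.77 and *Prrx1* to *Prrx2* by 0.30, each towards the former gene in *Pdk4*SMKO cells. *Mef2a*, *Runx2* and *Tead2*, the paralogs outside the 46, were themselves lower (log2 fold changes -1.41, -1.66 and -1.22). The remaining 6 pairs overlapped between genotypes. *Foxf1* and *Foxf2* kept a log2 ratio of 1.73 ± 0.21 and 1.74 ± 0.29 (SD, n = 3 each) while both rose, the latter with a log2 fold change of 3.38. *Zeb1* and *Zeb2* differed by -0.17 between genotypes, *Gata4* and *Gata6* by -0.16, *Twist1* and *Twist2* by -0.34, *Lhx2* and *Lhx9* by -1.03, and *Nr2f1* and *Nr2f2* by 2.10, the last with a *Pdk4*fl/fl spread of 2.31 (SD, n = 3).

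**Figure D5:**
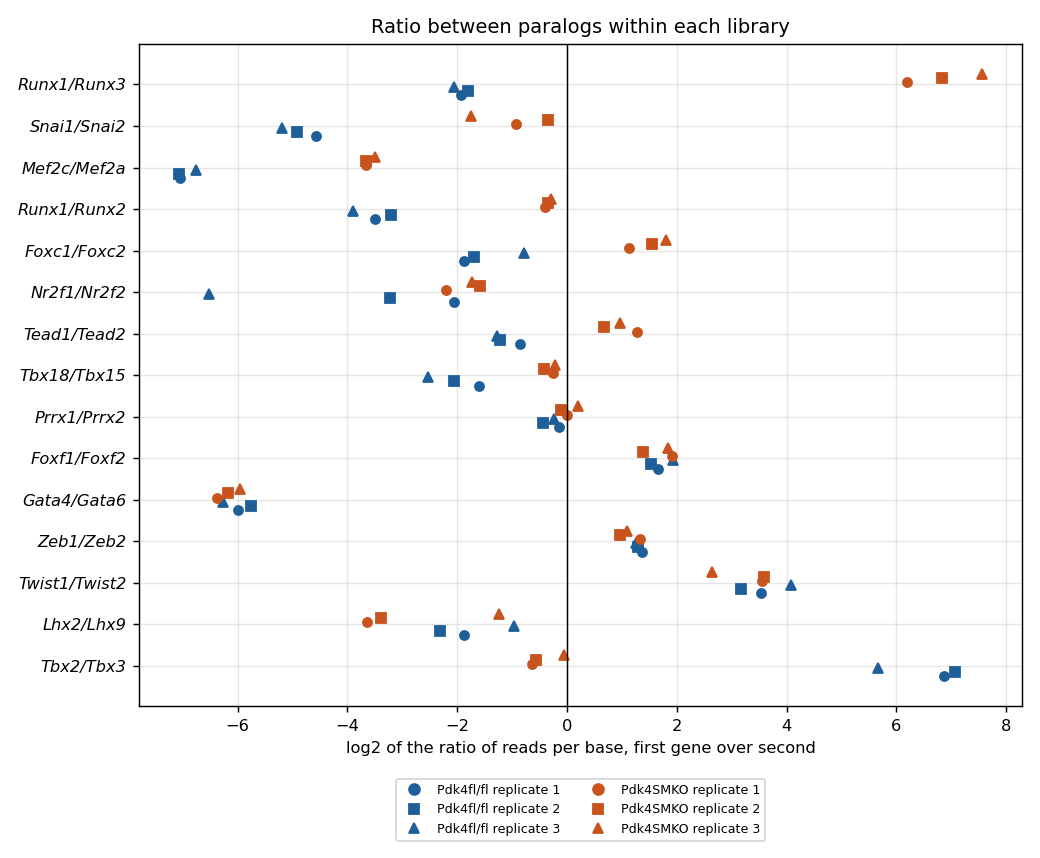
Log2 of the ratio of reads per base between the genes named, for 15 pairs in each library (blue *Pdk4*fl/fl, orange *Pdk4*SMKO), ordered by the difference between genotypes. Symbols right of 0 mean that the former gene of a pair is the more abundant per length. *Runx1*/*Runx3*, *Foxc1*/*Foxc2*, *Tead1*/*Tead2* and *Tbx2*/*Tbx3* cross 0 between the genotypes in every library.

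Genes within 100000 bases of each member were listed to see which changes were shared along a chromosome. The neighbours named here were chosen after their values were seen. *Foxf1* and *Foxc2* lie 28042 bases apart on chromosome 8, and the other tested genes within 100000 bases of *Foxf1* were higher as well. These were *Fendrr*, a non-coding RNA on the opposite strand (3399 bases from *Foxf1*, log2 fold change 2.48, edgeR adjusted p = 9.77e-05), and *Mthfsd* (log2 fold change 2.44, edgeR adjusted p = 1.97e-07). *Foxl1*, the remaining forkhead gene of this cluster, had at most 5 counts in any library. *Gmds*, 8935 bases from *Foxc1*, moved against it (log2 fold change -1.83, edgeR adjusted p = 6.74e-07). *Six3*, 63883 bases from *Six2*, went from 68, 72 and 55 counts to 0, 0 and 1, so that both genes of this cluster were near absent from *Pdk4*SMKO cells.

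The spans of 22 members overlapped that of another counted gene. Strand use in the counting is not given in the sources used here, and without it, reads of a gene and of its antisense partner cannot be told apart. On the opposite strand 24 genes overlapped a member, 6 of which were tested and 5 called, where 59.3% of all genes tested were called. *Emx2os* (log2 fold change 1.97) at *Emx2*, an unnamed gene at *Tbx18* (3.00), an unnamed antisense gene at *Nr2f1* (1.76) and *Gm10125* at *Zeb1* (-1.65) followed the direction of the member. *Gm29100* at *Twist2* was called higher (3.73), while *Twist2* was not called. *1010001N08Rik* at *Gata6* was not called (-0.025). The values of *Emx2*, *Tbx18*, *Nr2f1*, *Zeb1*, *Twist2* and *Gata6* are uncertain to this extent. *Prrx2* lies within the listed span of *Golga2*, which was not called (-0.30).

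Other genes of the same families moved in both directions, as did the members and all genes. Of 64 paralogs listed, 63 were in the table and 30 were tested, with a median log2 fold change of -0.56. Of these 30, 12 were higher (40.0%) and 11 lower (36.7%), against 32.8% and 26.5% of all genes tested. Large changes in both directions were found among the paralogs whose mean reached 5 CPM in either genotype. *Foxs1*, a forkhead gene of perivascular cells, fell from between 171 and 186 CPM to between 3.48 and 5.53 CPM (41.8-fold lower, log2 fold change -5.38, edgeR adjusted p = 1.45e-08). *Shox2*, of the sinus node and limb, fell 66.3-fold to a mean of 0.241 CPM. *Tbx6*, of the presomitic mesoderm (log2 fold change -4.59), and *Gata3* (-4.04) fell too. Increases were found for *Tead4* (3.62), *Foxf2* (3.38) and *Eya2*. The last went from 0 counts in each *Pdk4*fl/fl library to 229, 109 and 89, at least 33.5-fold more, and is the Eya gene with the largest change, *Eya1* being near the floor in both genotypes.

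Of 43 listed cofactors and partners of these transcription factor families, 36 were tested, of which 14 were higher (38.9%) and 4 lower (11.1%), with a median log2 fold change of 0.58. Their share called higher was near that of all genes (32.8%) and of the other transcription factors (38.1%), and the share called lower was below the 26.5% of all genes. *Id1* and *Id3*, which hold E proteins away from basic helix-loop-helix factors such as Twist and Hand, rose from 11.8 ± 2.72 to 141 ± 18.2 CPM and from 22.9 ± 0.728 to 167 ± 31.8 CPM (SD, n = 3 each). *Meis1*, a homeodomain partner of Hox and Pbx proteins, rose 13.7-fold, and *Tle1*, a Groucho corepressor used by Runt factors, rose 10.8-fold. *Vgll3*, a TEAD co-factor, was 8.53-fold higher, *Zfpm1*, the GATA co-factor FOG1, 6.83-fold, *Hdac7*, a deacetylase that represses Mef2, 5.59-fold, and *Mkl2*, a co-activator of SRF, 4.93-fold. The 4 lower genes, named because they are few, were *Tcf12*, an E protein (log2 fold change -1.86), *Hdac5* (-1.83), *Wwtr1*, the TEAD co-activator TAZ (-1.72), and *Zfpm2*, the GATA co-factor FOG2 (-1.67). The co-factors of one family therefore went in different directions in the TEAD (*Vgll3* and *Wwtr1*), GATA (*Zfpm1* and *Zfpm2*) and Mef2 (*Hdac7* and *Hdac5*) groups, and these directions held under TMM, RLE, upper-quartile and library-size scaling.

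Markers of cell types were set beside the members, and the lists differed in direction. The counts called below stand against 32.8% higher and 26.5% lower among all genes tested. The lists were chosen with earlier results of these data known. A gene near absent from 1 genotype could be tested only through the other, so its direction followed from the filter. All 10 tested markers of mesothelium and epicardium, of 12 listed, were higher in *Pdk4*SMKO cells. Among them *Bnc1*, *Krt18*, *Aldh1a2*, *Upk1b*, *Gpm6a* and *Lrrn4* had at most 5 counts in any *Pdk4*fl/fl library and passed the filter through *Pdk4*SMKO libraries alone. The sum of the 12 listed markers went from between 87.9 and 127 CPM to between 919 and 1558 CPM, with no marker at 0 in a whole genotype. *Msln* rose from 6.42 to 410 CPM on average. *Upk1b* (2, 2 and 3 counts) and *Bnc1* (0, 0 and 1 counts) were at or under the floor in *Pdk4*fl/fl libraries. In *Pdk4*SMKO libraries they averaged 218 and 36.6 CPM. These markers accompany *Wt1*, *Tbx18* and *Osr1*, while *Gata4*, *Gata5* and *Tcf21*, which the same tissue uses, were not higher or not detected. Of 10 fibroblast markers 7 were higher and 1 lower, and their sum rose from between 669 and 893 CPM to between 7662 and 9503 CPM. Smooth muscle markers gave 7 higher and 3 lower of 10, with sums of 774 to 803 and 731 to 966 CPM that overlapped between genotypes. *Tagln* (means of 252 and 52.6 CPM), *Cnn1* (19.5 and 6.87 CPM) and *Smtn* (280 and 57.4 CPM) were the lower ones. *Acta2*, among the higher ones, rose from 233 to 700 CPM. The sums thus joined opposite changes, and for each of the 10 markers alone the genotypes did not overlap. Endothelial markers, of which 4 of 8 were tested, gave 3 lower and none higher (sums of 17.5 to 25.8 and 3.58 to 6.97 CPM), whereas *Gata2*, *Foxf1*, *Foxc1* and *Nr2f2*, which endothelium also expresses, were higher. Cardiac markers summed to between 7.18 and 8.99 CPM and between 1.79 and 3.46 CPM, with *Myh6* at 0 in all libraries. Of the members that act in the heart, *Nkx2-5*, *Tbx5*, *Hand1* and *Isl1* were at or under the floor. Others were not, with *Hand2*, *Tbx3* and *Mef2c* called higher and *Gata4*, *Gata6*, *Tbx20* and *Foxp1* counted in every library and not called. Skeletal muscle markers did not exceed 1.54 CPM in sum, with *Myod1*, *Myf5* and *Myog* at 0. Of 8 macrophage markers 7 were tested, with 6 higher and 1 lower, and 5 of them had no count in *Pdk4*fl/fl libraries. Their sum ran from 21.5 to 38.0 CPM and from 12.0 to 38.6 CPM, highest in *Pdk4*SMKO replicate 1. In *Pdk4*fl/fl cells this sum was almost wholly *Cd68*, the lower marker, at 37.8, 34.5 and 21.2 CPM against 6.80, 3.13 and 2.94 CPM. The overlap of the sums therefore does not hold for the other markers. *C1qa*, *C1qb*, *C1qc*, *Adgre1* and *Tyrobp*, without counts in *Pdk4*fl/fl cells, were counted in every *Pdk4*SMKO library. Of 6 neural crest and Schwann cell markers 3 were tested and 2 were higher (sums of 1.89 to 2.53 and 7.89 to 11.8 CPM). Of 6 cycling markers 1 was higher and 1 lower, and of the adipocyte markers the 1 tested was not called. The part of these cell types in the values of the members was not tested.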

How the data were processed

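For each of the 6 libraries the authors deposited raw counts of reads on genes, as whole numbers. Aligner, counter and strand use are not given in the sources used here. The submitters' processing notes name GRCm39, but the identifiers belong to Ensembl's C57BL/6NJ annotation. Coordinates are printed as the table gives them, and 0 member starts lay within 1000 bases of the GRCm38.p6 start. Paper and labels name different library kits.

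Genes were filtered with filterByExpr, scaled by TMM and tested with the quasi-likelihood test of edgeR 4.0.16 (R 4.3.3) with genotype as the sole term and p-values adjusted by Benjamini-Hochberg over 14085 genes. On simulated counts with 200 genes changed, up and down in equal number, 198 were tested. The fit recovered 195 of these 198 and called 4 unchanged ones. In the data 8349 genes were called, so the simulation does not test whether TMM scaling holds for so large a difference. DESeq2 1.42.0, other scalings and filters, a replicate block and each library left out were alternatives. Members, related lists, markers and pairs were chosen with earlier results of these data known. All members are named, and of each related list the 8 called genes with the largest change and at least 5 CPM, 1 of which is not reported here.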

Additional observations from a re-analysis of the deposited data

How the results depend on the processing

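Of the 32 tested members, 31 kept direction and call with RLE factors, DESeq2 and the replicate block, 27 with upper-quartile factors and 22 with library size alone. *Snai1*, near 0, changed sign under the former 3 (-0.027, -0.027 and -0.029) and ranged from -0.30 to 0.19 with each library left out (below 0 without the *Pdk4*fl/fl replicates 2 and 3, at -0.05 and -0.08, and without *Pdk4*SMKO replicate 2). *Tbx15* changed sign with library size alone (0.023), which also gave 2391 lower genes in all. The replicate numbers mark no known pairing (correlations of deviations 0.0396, 0.0604 and 0.176 between libraries sharing a number), and the block gave 15 higher and 6 lower members. With each library left out, 13 to 16 members were higher and 5 to 7 lower. With adjusted p alone, 22 members were higher and 9 lower, and 7 cofactors were lower in place of 4. A minimum of 10 counts in every library left 27 members tested, 11 higher and 4 lower, and gave 4 higher paralogs in place of 12, since fewer genes were tested. With 1 added to each count, 14 of 15 paralog ratios moved by less than the spread between libraries, *Tbx2* to *Tbx3* being the exception. Depth limits *Tbx3*, *Hand2*, *Wt1*, *Lhx2*, *Six2* and *Runx3* in 1 genotype each.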
